A study of Mus musculus with 8 samples.

Results

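The cytosolic ribosomal protein genes were described in livers of mice lacking Btg2 (also named TIS21 or PC3) and of wild-type mice. A gene was a member if the accession of one of its non-control probes mapped to a mouse symbol that begins with Rpl or Rps. Rps6k kinase genes and pseudogene symbols (-ps) were left out. The rule found 86 genes with 175 probes, among 20284 named genes on the array, and the brightest probe stood for each gene. The rule used symbols and brightness, and no difference between groups. Of the 86 genes, 84 were tested, among 14582 genes tested in all. The tested members comprised 46 canonical genes of the large subunit, 30 canonical genes of the small subunit and 8 paralogues or other genes caught by the letters. The other members, Rpl3l (known from striated muscle) and Rpl10l (known from testis), had no group with both arrays well above background and were not tested.

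The 4 groups were Btg2-knockout (KO) adult liver, wild-type (WT) adult liver, KO fetal liver and WT fetal liver, all of the C57BL/6J strain. Adult samples came from males aged 10 weeks after 20 h without food, so both adult groups share the fast. Fetal samples were livers of embryonic day 13.5 pooled within a womb, males and females together. Each group is 1 RNA sample measured on 2 arrays as technical duplicates, per the series' design text. All p-values below therefore measure array error, and they compare 4 RNA samples rather than genotypes or ages. The sources used here do not say how many adult mice stood behind an adult sample.

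Ribosomal proteins and ribosomal RNA form the 2 subunits of the ribosome: the small subunit reads the mRNA and the large subunit joins amino acids. The proteins are needed in near-equal amounts, and their mRNAs are among the most abundant of any cell. In mammals most of these mRNAs begin with a C inside a run of pyrimidines, the terminal oligopyrimidine (TOP) element, through which nutrient signals by way of mTOR set their translation. Btg2 belongs to the BTG/TOB family, which binds the deadenylase complex CCR4-NOT. Fetal liver at this age is an organ of blood formation with many dividing cells, while fasted adult liver is mostly made of hepatocytes.

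Levels are given as log2 of the processed Cy3 signal minus the log2 signal at the 75th percentile of the same array, so that 0 is the 75th percentile. The 75th percentile lay at a signal of 132 to 171 in adult and of 278 to 334 in fetal liver, and no spot was saturated. All 76 canonical members were well above background on all 8 arrays. Duplicates of a canonical member lay close together, with a median gap of 0.03 in KO adult, 0.06 in WT adult, 0.03 in KO fetal and 0.07 in WT fetal liver. The largest gap in each group belonged to Rpl22 in KO adult (0.27), Rpl4 in WT adult (0.63), Rps10 in KO fetal (0.22) and Rpl13a in WT fetal liver (0.45). The Btg2 probe was well above background on 0 of 4 KO arrays and on all 4 WT arrays. Hybridisation cannot tell a ribosomal protein mRNA from transcribed copies with the same bases, and the RefSeq table lists 321 Rpl and Rps pseudogene symbols.

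Sequence around the annotated transcription starts was read from the RefSeq promoter table of GRCm38.p6, which held 56 of the 76 canonical members. A run of at least 6 pyrimidines that begins with C, lying wholly within 15 bases either side of an annotated start, was found for 32 of the 56 genes (57.1%). The share was 25.5% over all 27025 genes of the table and 27.7% over the tested genes in it. The motif CCGGAAG, searched on both strands of the 300 bases of each promoter, was found for 24 of the 56 genes (42.9%), against 9.93% of all genes and 17.4% of the tested ones. AAGATGGC, on both strands, was found for 8.93% of the 56 genes, 3.19% of all genes and 4.69% of the tested ones. TATAAA on the sense strand was found for 8.93% of the 56 genes, 9.77% of all genes and 6.64% of the tested ones. Among 68 mitochondrial ribosome genes the shares were 29.4% for the pyrimidine run, 36.8% for CCGGAAG, 17.6% for AAGATGGC and 5.88% for TATAAA. The sequences that follow give 30 bases centred on the start for canonical members with long runs and for the paralogue pairs described further on, 5′ to 3′ on the strand of the gene, with the first pyrimidine run in capitals. Rpl36a, Rpl36al and both annotated starts of Rpl22 held no such run in this window.
Rpl35 (chr2:39005117-39005146, minus strand): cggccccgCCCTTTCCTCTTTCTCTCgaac
Rpl15 (chr14:18270972-18271001, minus strand): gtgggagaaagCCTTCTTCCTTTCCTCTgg
Rps10 (chr17:27635230-27635259, minus strand): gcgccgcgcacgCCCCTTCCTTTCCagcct
Rps27l (chr9:66946071-66946100, plus strand): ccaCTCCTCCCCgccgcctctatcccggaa
Rps27 (chr3:90213634-90213663, minus strand): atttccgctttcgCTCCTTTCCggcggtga
Rpl22l1 (chr3:28805493-28805522, plus strand): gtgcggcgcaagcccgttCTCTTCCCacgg
Rpl22, first start (chr4:152324421-152324450, plus strand): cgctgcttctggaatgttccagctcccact
Rpl22, second start (chr4:152325711-152325740, plus strand): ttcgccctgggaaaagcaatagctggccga
Rpl39l (chr16:10170213-10170242, plus strand): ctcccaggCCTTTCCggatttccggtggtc
Rpl39 (chrX:37085208-37085237, minus strand): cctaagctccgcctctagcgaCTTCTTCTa
Rpl36al (chr12:69184053-69184082, minus strand): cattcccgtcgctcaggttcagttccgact
Rpl36a (chrX:134585639-134585668, plus strand): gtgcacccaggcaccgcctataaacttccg
The runs of Rpl35, Rpl15, Rps10 and Rps27 reach across the annotated start, whereas that of Rps27l lies before it. For Rps27l a second annotated start in the table had no such run. These matches describe letters in a window and were not tested for any effect on the levels.

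Adult liver had lower levels of most ribosomal protein mRNAs than fetal liver, in both genotypes. In KO liver 74 of the 76 canonical members fell (97.4%; limma, adjusted p under 0.05 at any size), against 44.2% of all genes tested, and 0 rose, against 42.2%. In WT liver 64 of the 76 fell (84.2%), against 43.7% of all genes, and 4 rose, against 43.2%. The median log2 difference over the canonical members was -0.94 in KO liver (a 1.92-fold lower level) and -0.62 in WT liver (1.53-fold), while the median over all genes was -0.04 in KO and -0.03 in WT liver. The middle of the members was narrow beside that of all genes: their quartiles ran from -1.16 to -0.79 in KO liver and from -0.90 to -0.32 in WT liver, against -1.19 to 1.05 and -1.21 to 1.12 for all genes.

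Past the larger threshold of at least 2-fold, 33 of the 76 members were lower in KO adult liver (43.4%), against 27.8% of all genes, and 12 were lower in WT adult liver (15.8%), against 28.3%. The 12 were Rpl3, Rpl36a, Rpl12, Rps7, Rpl39, Rpl15, Rpl21, Rpl22, Rps19, Rpl13, Rps15a and Rpl5. None of the 76 was at least 2-fold higher, against 25.7% of all genes in KO and 26.9% in WT liver (limma; 74 and 68 of the 76 had an unadjusted p under 0.05 in either direction). With the 75th percentile the WT share past 2-fold was below that of all genes. Under the 5 other scalings or sources it was above, at 51.3 to 80.3% of the members and 22.4 to 43.8% of all genes. Both counts depend on the scaling. With 5 other scalings or sources they ran from 54 to 70 members in KO and from 39 to 61 in WT liver, and the canonical median stood 0.90 to 1.17 below the median of all genes in KO liver and 0.59 to 1.13 below it in WT liver. In KO liver all 76 canonical members were lower in adult under each of the 6 settings. In WT liver 69 were, and the 7 that lay above 0 with the 75th percentile changed sign.

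**Figure D1:**
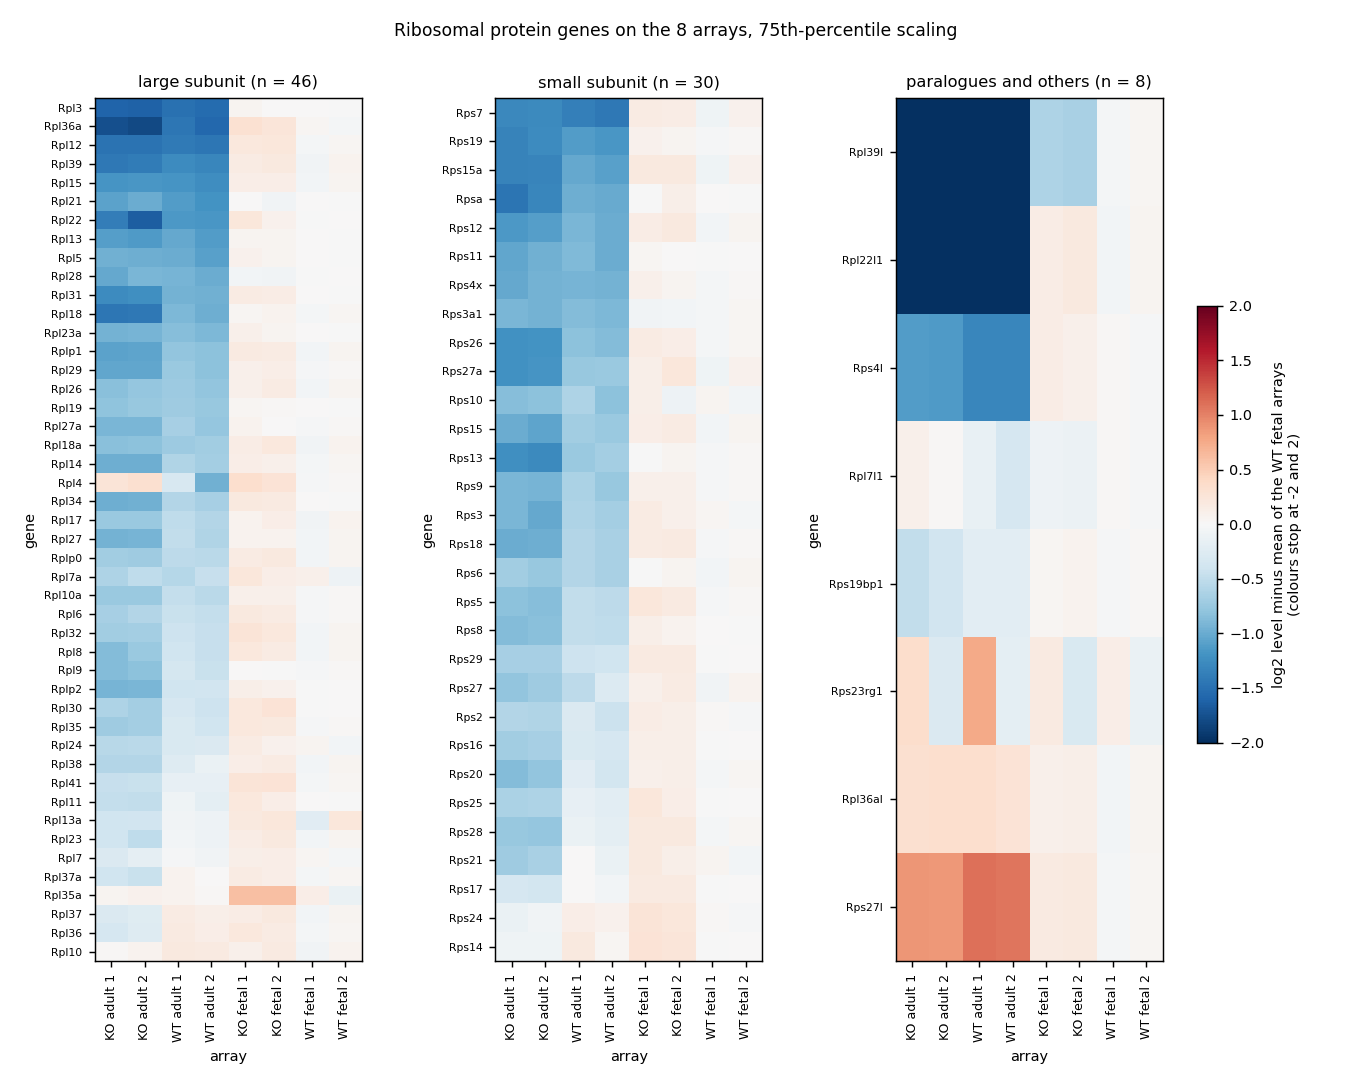
Log2 level of each tested member on each of the 8 arrays (columns) minus its mean on the WT fetal arrays, with large-subunit genes, small-subunit genes and the paralogues and others in separate panels, sorted by the WT adult minus fetal difference. Blue is lower and red is higher than in WT fetal liver; most rows are blue on the 4 adult arrays, and Rps27l is red there.

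The cell types of the samples moved with the stage. All 10 tested erythroid markers were lower in adult liver in both genotypes. Their summed level, in units of the 75th percentile, was 625 to 626 on the KO adult arrays and 3540 to 3550 on the KO fetal arrays, and 520 to 528 on the WT adult against 2890 to 3190 on the WT fetal arrays. Gata1 and Epb42 were dim, with neither array well above background, in both adult groups. All 6 proliferation markers were lower too, with sums of 14.1 to 14.5 on KO adult and 449 to 461 on KO fetal arrays, and of 10.7 on both WT adult against 412 to 414 on WT fetal arrays. Top2a and Ccnb1 were dim in both adult groups, and Cdk1 in WT adult liver. All 10 hepatocyte markers were higher in adult liver, with sums of 7510 to 7670 in KO adult and 1240 to 1250 in KO fetal, and 8600 to 8660 in WT adult against 1220 to 1240 in WT fetal liver. Pck1 and Cps1 were dim in this sense in KO fetal liver. All 10 macrophage markers were higher in KO adult than in KO fetal liver, with sums of 312 to 327 and 104 to 106, whereas 8 were lower and 2 higher in WT adult than in WT fetal liver, with sums of 53.1 to 56.1 and 84.5 to 85.9. Among the macrophage markers Vsig4 was dim in both fetal groups and Timd4 in WT adult liver. All 4 hepatoblast and all 5 progenitor markers tested were lower in adult liver in both genotypes, as were 4 of 5 stellate cell markers, of which 1 was higher. Igf2 and Gfi1b were dim in both adult groups, Gpc3, Myb and Gata2 in KO adult and Dlk1 in WT adult liver. The part of these shifts in the ribosomal protein levels was not tested, and in bulk RNA fewer cells of a type cannot be told apart from less RNA per cell.

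The largest falls among large-subunit members were those of Rpl36a, Rpl12, Rpl22, Rpl3 and Rpl39 in KO liver, and Rpl22 is described with its paralogue. Rpl3, which reaches the peptidyl transferase centre, had levels of 6.99 and 6.97 on the KO adult arrays against 8.65 and 8.59 on the KO fetal arrays. On the WT arrays it had 7.10 and 7.04 in adult against 8.59 and 8.59 in fetal liver. The arrays of the 2 stages did not overlap, and the difference was -1.64 ± 0.04 in KO (SE; adjusted p = 3.13e-09, limma) and -1.52 ± 0.04 in WT liver (adjusted p = 4.68e-09, limma).

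Rpl36a, encoded on the X chromosome, had 6.22 and 6.17 in KO adult against 8.29 and 8.23 in KO fetal liver, and 6.53 and 6.41 in WT adult against 8.02 and 7.94 in WT fetal liver. It had the lowest difference of all canonical members in KO liver, -2.07 ± 0.05 (4.19-fold; adjusted p = 4.77e-09, limma), and -1.51 ± 0.05 in WT liver. All 3 of its probes fell, from -2.07 to -1.59 in KO and from -1.51 to -1.27 in WT liver.
Rpl12, at the base of the stalk that recruits translation factors, differed by -1.70 ± 0.04 in KO and -1.43 ± 0.04 in WT liver. Rpl39, a small protein lining the exit tunnel, differed by -1.60 ± 0.05 in KO and -1.28 ± 0.05 in WT liver.

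The stalk proteins themselves moved in the same direction by smaller amounts in WT liver. Rplp0 differed by -0.89 in KO and -0.53 in WT liver, Rplp1 by -1.24 and -0.80, and Rplp2 by -1.02 and -0.39, each with an SE of 0.04 or 0.05 and all past the test. Rpl5 and Rpl11, which join the ribosome together with the smallest ribosomal RNA and can bind Mdm2 when unassembled, did not move alike. Rpl5 differed by -1.03 ± 0.04 in KO and -1.04 ± 0.04 in WT liver, and Rpl11 by -0.66 ± 0.05 in KO and -0.14 ± 0.05 in WT liver. Rpl38, needed in mouse embryos for translation of Hox mRNAs, differed by -0.74 ± 0.06 in KO and -0.19 ± 0.06 in WT liver.

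Among small-subunit members the largest falls in KO liver were those of Rps15a (-1.52), Rpsa (-1.44), Rps7 (-1.44), Rps27a (-1.37), Rps19 (-1.37) and Rps26 (-1.35). The second-brightest probes of Rpsa and Rps27a differed by only -0.26 and -0.23 in KO liver, and by 0.42 and 0.24 in WT liver. The remaining probes of these genes differed in KO liver by -1.46 and -3.05 for Rpsa and by -1.03 for Rps27a. Rps7 had 6.51 and 6.54 in KO adult against 7.97 and 7.96 in KO fetal liver, and 6.44 and 6.38 in WT adult against 7.71 and 7.90 in WT fetal liver. Its difference was -1.44 ± 0.06 in KO and -1.40 ± 0.06 in WT liver, and its interaction did not pass (adjusted p = 0.715, limma). Rps19, the gene most often mutated in human Diamond-Blackfan anaemia, differed by -1.37 ± 0.04 in KO and -1.15 ± 0.04 in WT liver. Rps26, near the mRNA exit channel and also a gene of that anaemia, differed by -1.35 ± 0.04 in KO and -0.85 ± 0.04 in WT liver. Rps6, the substrate of S6 kinase, differed by -0.74 ± 0.05 in KO and -0.62 ± 0.05 in WT liver.

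At the other end stood Rpl4 and Rpl10, the canonical members that passed no test between stages in KO liver, and the 4 canonical members that rose in WT liver, Rpl10, Rpl36, Rpl37 and Rps24. Rpl4 differed by -0.02 ± 0.17 in KO liver. Rpl10, which joins the large subunit late in its assembly, had 9.46 and 9.50 in KO adult against 9.54 and 9.62 in KO fetal liver, and 9.63 and 9.62 in WT adult against 9.37 and 9.50 in WT fetal liver. The difference was -0.10 ± 0.06 in KO liver (adjusted p = 0.14, limma) and 0.19 ± 0.06 in WT liver (adjusted p = 0.0159, limma). Its sign in WT liver turned under the other scalings, to as low as -0.88. With the 75th percentile the other probes of Rpl10 were higher in adult, by 0.31 and 0.32 in KO and 0.83 and 0.80 in WT liver. Rpl36, Rpl37 and Rps24 differed by 0.15, 0.14 and 0.11 in WT liver, each past the test with the 75th percentile and lower in adult under the 5 other scalings or sources. In KO liver the same genes differed by -0.49, -0.44 and -0.34 and passed the test. Brightness moved with the size of the fall: the 38 brighter canonical members had a median of -0.87 in KO and -0.40 in WT liver, and the 38 dimmer ones -1.02 in KO and -0.80 in WT liver. With quantile normalization these medians were -1.08 and -1.24 in KO and -0.99 and -1.29 in WT liver.

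Probes of a gene did not always give the same size. Of the 50 canonical members with several probes above background, all probes were lower in adult in 48 in KO and in 38 in WT liver, and the probes disagreed in sign in 2 in KO and 11 in WT liver. The median range between probes of a gene was 0.42 in KO and 0.50 in WT liver. The range was largest for Rpsa in KO liver, where probes ran from -3.05 to -0.26, and for Rps24 in WT liver, where they ran from -3.17 to 0.11. The values of a gene in the text are those of its brightest probe unless another is named.

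The order of the members was much the same in both genotypes, which share no arrays. Across the 76 canonical members the adult minus fetal difference in KO and in WT liver correlated at r = 0.84 (Spearman's rho = 0.84), where all 76 points share the same 4 RNA samples and genes are not independent. The values were 0.84 within the 46 large-subunit members and 0.84 within the 30 small-subunit members. For 69 of the 76 both differences were below 0.

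**Figure D2:**
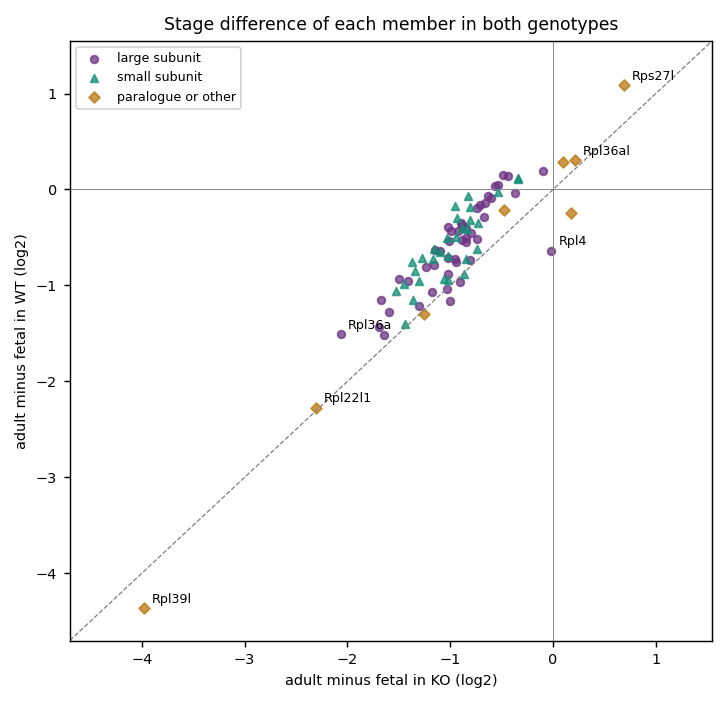
Adult minus fetal log2 difference of each tested member in KO liver (x axis) and in WT liver (y axis), with the line of equal differences dashed. Most canonical members lie above the line, where the fall is deeper in KO liver; Rps27l and Rpl36al lie above 0 on both axes, and Rpl22l1 and Rpl39l far below. The adult signals of Rpl39l were not well above background.

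Large and small subunits shifted together. Set against its mean on the WT fetal arrays, the median large-subunit member stood at -0.84 and -0.76 on the KO adult arrays, -0.51 and -0.59 on the WT adult arrays, 0.15 and 0.15 on the KO fetal arrays and -0.03 and 0.03 on the WT fetal arrays. The median small-subunit member stood at -0.89 and -0.89, -0.60 and -0.66, 0.14 and 0.13, and -0.02 and 0.02 on the same arrays in that order. The large-subunit median minus the small-subunit median was 0.05 for KO against WT in adult liver and 0.01 in fetal liver. It was 0.07 for adult against fetal in KO liver and 0.09 in WT liver. The spread of this difference between duplicate arrays was 0.03 (pooled SD). Under the 6 scalings and sources it stayed between 0.04 and 0.05 in the adult genotype comparison, between -0.01 and 0.01 in the fetal one, between 0.07 and 0.11 for the KO stages and between 0.06 and 0.10 for the WT stages. With the second-brightest probe of each gene it was -0.13 for the WT stages.

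**Figure D3:**
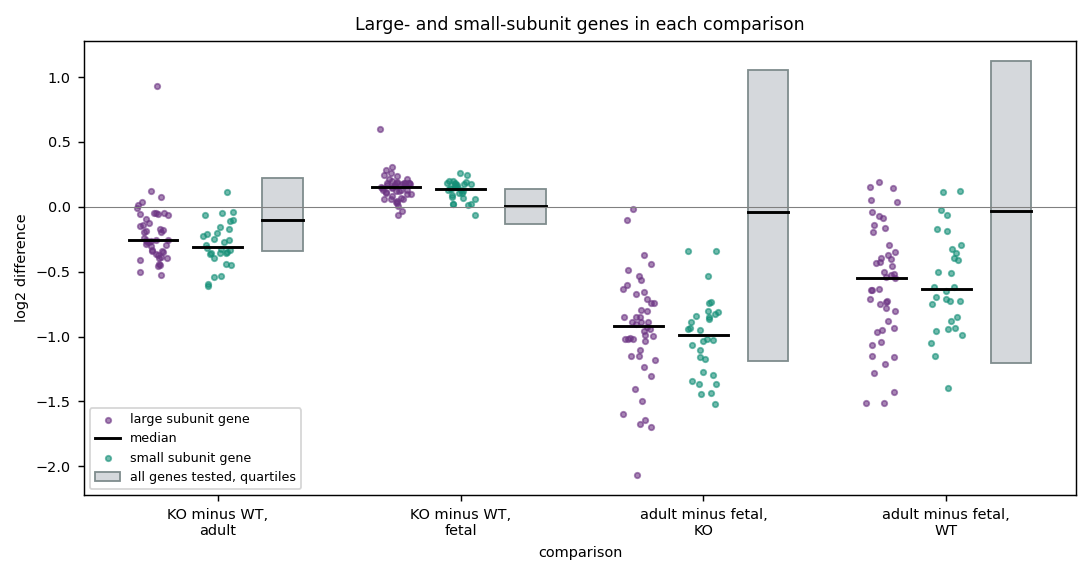
Log2 difference of each canonical large-subunit (purple) and small-subunit (green) gene in the 4 comparisons, with black lines at the medians and grey boxes at the quartiles of all genes tested. The 2 subunits overlap throughout, with medians 0.01 to 0.09 apart.

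Of 6 paralogues set beside their partners, Rps27l and Rpl36al had ratios to the partner that rose from fetal to adult liver in both genotypes in all 21 settings. Rps27l, a p53 target in human cells that can replace Rps27 in the small subunit, had 7.87 and 7.86 in KO adult against 7.17 and 7.18 in KO fetal liver, and 8.09 and 8.06 in WT adult against 6.95 and 7.03 in WT fetal liver. It was higher in adult by 0.69 ± 0.04 in KO (adjusted p = 4.88e-07, limma) and 1.08 ± 0.04 in WT liver (adjusted p = 2.9e-08, limma), and it stayed higher under all 6 scalings and sources, by 0.15 to 0.69 in KO and 0.39 to 1.08 in WT liver. Rps27 fell by 0.88 ± 0.09 in KO and by 0.40 ± 0.09 in WT liver. The log2 ratio of Rps27l to Rps27, which no scaling by a factor per array can move, rose by 1.58 ± 0.08 in KO (2.98-fold; adjusted p = 5e-07, limma) and by 1.48 ± 0.08 in WT liver (2.79-fold; adjusted p = 7.19e-07, limma). Over 21 settings it rose by 1.44 to 1.63 in KO and by 1.24 to 1.62 in WT liver.

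Rpl36al, an autosomal copy of the X-linked Rpl36a, had 6.70 and 6.71 in KO adult against 6.48 and 6.50 in KO fetal liver, and 6.71 and 6.65 in WT adult against 6.32 and 6.43 in WT fetal liver. Its own difference was 0.22 ± 0.04 in KO and 0.30 ± 0.04 in WT liver and changed sign with the scaling, to as low as -0.32 in KO and -0.39 in WT liver. The log2 ratio of Rpl36al to Rpl36a rose by 2.28 ± 0.06 in KO (4.86-fold; adjusted p = 1.05e-08, limma) and by 1.82 ± 0.06 in WT liver (3.52-fold; adjusted p = 4.04e-08, limma), and by at least 2.07 in KO and 1.70 in WT liver in each of the 21 settings.

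Rpl22l1 fell further than Rpl22. Its levels were 6.09 and 6.11 in KO adult against 8.38 and 8.43 in KO fetal liver, and 5.98 and 5.94 in WT adult against 8.18 and 8.28 in WT fetal liver, a fall of 2.30 ± 0.04 on the log2 scale in KO and of 2.27 ± 0.04 in WT liver. Rpl22, whose protein represses Rpl22l1 in mice, fell by 1.67 ± 0.09 in KO and by 1.15 ± 0.09 in WT liver. The log2 ratio of Rpl22l1 to Rpl22 changed by -0.63 ± 0.10 in KO (adjusted p = 0.000493, limma) and -1.12 ± 0.10 in WT liver (adjusted p = 1.37e-05, limma). A second Rpl22 probe differed by only -0.34 in KO and -0.19 in WT liver.

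Rpl39l, a copy of Rpl39 best known from testis, was well above background on the 4 fetal arrays and on none of the 4 adult arrays. With the 75th percentile KO adult liver was at least 4.15-fold lower than KO fetal liver, with measured means of -4.44 and -0.46. WT adult liver was at least 5.50-fold lower than WT fetal liver, with measured means of -4.19 and 0.17. The limma test (adjusted p = 1.62e-07 in KO and 8.79e-08 in WT liver) was of the measured differences, not of these bounds. The gene passed the filter through its fetal arrays alone. Over 20 settings the measured difference ran from -4.51 to -1.39 in KO and from -5.06 to -2 in WT liver. The bounds are therefore given for the 75th percentile alone. Rps4l fell by 1.25 ± 0.03 in KO and by 1.30 ± 0.03 in WT liver, close to Rps4x (-1.06 and -0.93). Rpl7l1, which acts in assembly of the large subunit in human cells, differed by 0.17 ± 0.08 in KO (adjusted p = 0.0649, limma) and -0.24 ± 0.08 in WT liver (adjusted p = 0.0189, limma). Rps19bp1, a binding partner of Rps19, fell by 0.48 ± 0.04 in KO and by 0.21 ± 0.04 in WT liver, and Rps23rg1, a mouse retrogene of Rps23, passed no test.

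**Figure D4:**
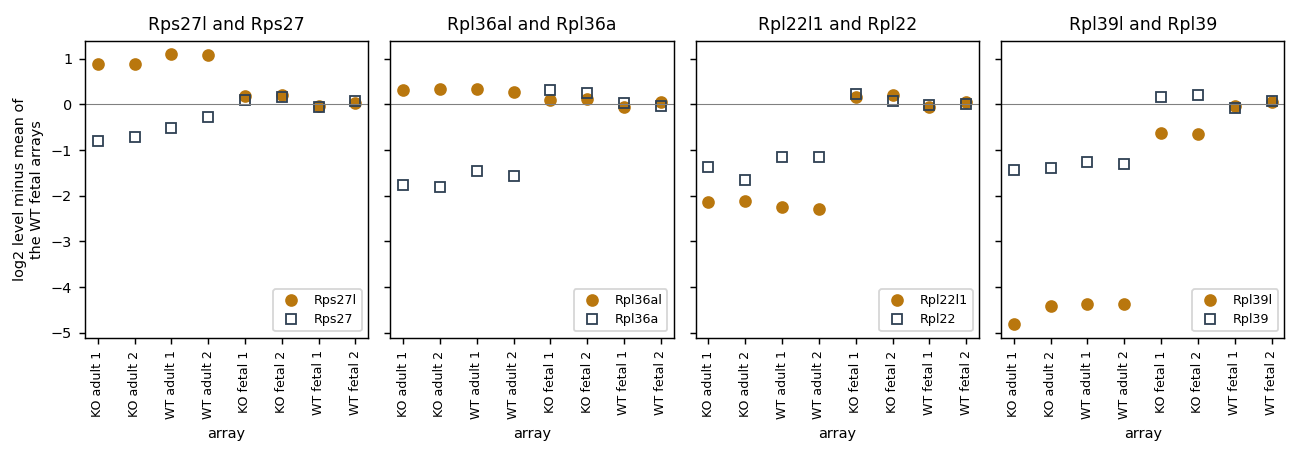
Log2 level on each of the 8 arrays minus the mean of the WT fetal arrays, for 4 paralogues (filled circles) and their partners (open squares). On the adult arrays Rps27l lies above 0 and Rps27 below it, Rpl36a lies below Rpl36al, and Rpl22l1 and Rpl39l lie below their partners; Rpl39l was not well above background there.

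The genotype comparison in adult liver gave small shifts whose direction depends on the scaling. With the 75th percentile 53 of the 76 canonical members were lower in KO adult liver (69.7%), against 32.2% of all genes tested, and 1, Rpl4, was higher, against 22.3%. The canonical median was -0.26 and the median over all genes was -0.10. With the scaling to the median of each array 0 members were lower and 1 was higher (limma; 1 had an unadjusted p under 0.05). There were 38 lower and 10 higher with the 75th percentile over detected probes, 15 and 20 with quantile normalization, 17 and 16 with normexp background correction, and 16 and 20 in the deposited value table. Of all genes 22.3% were lower and 32.5% higher with detected probes, and under the other 3 settings up to 25.3% were lower and 27.3 to 28.9% higher. With quantile normalization the members' shares were 19.7% lower and 26.3% higher, near those of all genes. Under the 3 scalings by a factor per array, including that to the array median, the canonical median stood 0.16 below that of all genes. Under the other 3 it was within 0.02 of the all-gene median, on either side. No direction for the family as a whole in KO against WT adult liver can therefore be given from these arrays. With the 75th percentile no member was past 2-fold, against 7.52% of all genes in either direction. Of the 76 members 60 had an unadjusted p under 0.05 (limma). Brighter members had lower differences with this scaling (r = -0.44 between mean probe level and difference over the 76). The value was -0.70 within the large and -0.07 within the small subunit, and its source was not tested.

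**Figure D5:**
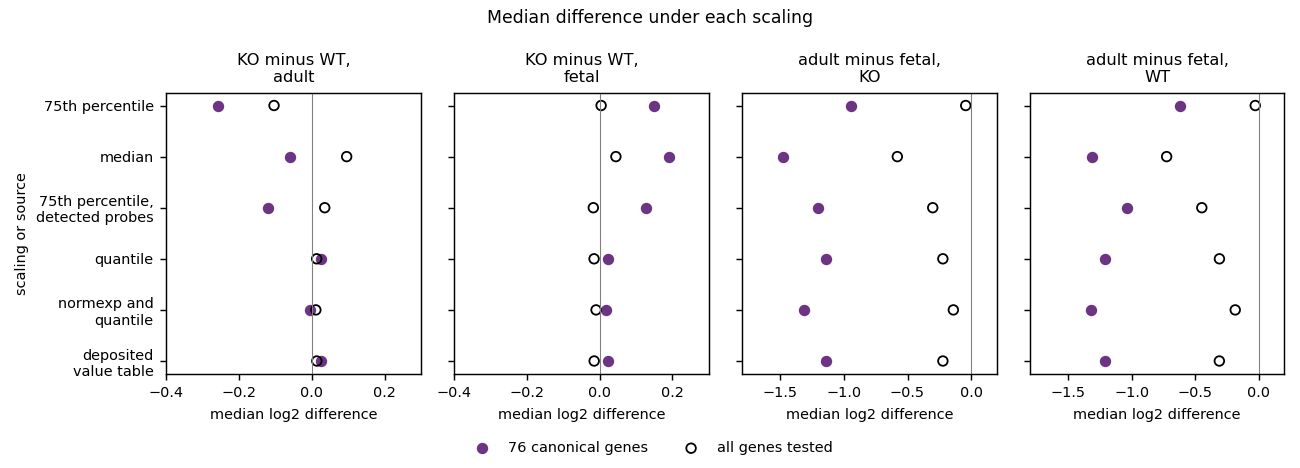
Median log2 difference of the 76 canonical members (filled) and of all genes tested (open) in each comparison under the 6 scalings and sources. For KO minus WT the filled points move to the open ones under the lower 3 settings; for adult minus fetal they stay at least 0.59 below them.

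Within the family 36 of the 76 members were lower in KO adult liver under all 6 settings, 6 were higher and 34 changed sign. The same counts over all genes are not given here, so these give no direction for the family. The 6 settings also overlap. Scalings by a factor per array shift all genes alike, and the value table gave nearly the same medians as quantile normalization. The largest falls were in Rps21, Rps28, Rps13, Rps20 and Rplp2. Rps28, in the head of the small subunit, had 7.92 and 7.91 in KO adult against 8.54 and 8.48 in WT adult liver, with no overlap, a difference of -0.59 ± 0.05 (adjusted p = 2.68e-05, limma). Rps21 had 4.32 and 4.38 in KO adult against 5.03 and 4.90 in WT adult liver, a difference of -0.61 ± 0.06 (adjusted p = 6.25e-05, limma). Rps13 differed by -0.54 ± 0.04, Rps20 by -0.53 ± 0.06, and the stalk protein Rplp2 by -0.53 ± 0.04. These 5 were negative in all 21 settings, from -0.68 to -0.21, and each passed the test in 20 of 21 settings, the exception being the scaling to the array median. Rpl18 also differed, by -0.50 ± 0.04. At the other end Rpl21, Rps7, Rpl5 and Rpl15 gave 0.12, 0.12, 0.07 and 0.04 and did not pass the test.

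Rpl4, a large-subunit protein whose extension reaches into the exit tunnel, was the canonical member that was higher. It had 6.00 and 6.06 in KO adult against 5.42 and 4.78 in WT adult liver. The groups did not overlap, but the WT duplicates were 0.63 apart, the widest gap of any canonical member. The difference was 0.93 ± 0.17 (adjusted p = 0.00237, limma), and it was 1.25 without the first WT adult array and 0.61 without the second. It passed 2-fold under 5 of the 6 scalings and sources, and 1 probe measures the gene. Among the other members Rpl7l1 (0.30 ± 0.08, adjusted p = 0.0115, limma), Rps4l (0.18 ± 0.03, adjusted p = 0.00132, limma) and Rpl22l1 (0.14 ± 0.04, adjusted p = 0.0245, limma) were higher in KO adult liver too, in 19, 20 and 16 of 21 settings past the test.

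Markers of macrophages and of other cells moved with the adult genotype. All 10 tested macrophage markers were higher in KO adult liver, with a summed level of 312 to 327 on the KO arrays and 53.1 to 56.1 on the WT arrays. Of these Timd4 was dim in WT adult liver. All 6 proliferation markers were higher as well, with sums of 14.1 to 14.5 on the KO and 10.7 on both WT arrays. Among them Top2a and Ccnb1 were dim in both adult groups, so their differences rest on signals not well above background. Cdk1 was dim in WT adult liver. Of 10 hepatocyte markers 6 were lower and 2 higher, with sums of 7510 to 7670 on the KO and 8600 to 8660 on the WT arrays. Of 5 stellate cell markers 4 were higher and 0 lower, with sums of 7.76 to 7.92 on the KO and 2.95 to 3.00 on the WT arrays. Of 5 endothelial markers 4 were higher and 1 lower, with sums of 32.9 to 35.7 on the KO and 37.5 to 39.0 on the WT arrays. Their part in the ribosomal protein values was not tested.

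In fetal liver the KO and WT pools differed little. With the 75th percentile 25 of the 76 members were higher in KO fetal liver (32.9%), against 10.3% of all genes tested, and 0 were lower, against 8.41% (limma; 49 members had an unadjusted p under 0.05 in either direction). The canonical median was 0.15, a 1.11-fold difference, while the median over all genes was within 0.01 of 0. Without the first KO fetal array the canonical median was 0.14, and without the second 0.15. Without the first WT fetal array it was 0.11, and without the second 0.18. There were 3 members higher and 4 lower with quantile normalization, and 6 and 5 with normexp background correction. The deposited value table gave 4 and 4, and the scaling to the array median 0 and 0. Of all genes 9.44% were higher and 13.1% lower with quantile normalization, against 3.95% and 5.26% of the members. The canonical median stood 0.15 above that of all genes under the scalings by a factor per array and 0.03 to 0.04 above it under the other settings. No member passed 2-fold, against 1.92% of all genes. The summed erythroid markers were 3540 to 3550 on the KO fetal and 2890 to 3190 on the WT fetal arrays, and their part was not tested.

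Rpl35a, a large-subunit protein and another gene of Diamond-Blackfan anaemia, had the largest fetal difference among the canonical members. It had 7.95 and 7.95 in KO fetal against 7.48 and 7.22 in WT fetal liver, a difference of 0.60 ± 0.08 (adjusted p = 0.00289, limma). It stayed between 0.40 and 0.64 under the 6 scalings and sources, but the second probe of the gene differed by only 0.13. Rpl36a (0.28 ± 0.05), Rpl41 (0.26 ± 0.05) and Rps14 (0.26 ± 0.06) followed and passed the test, while Rpl4 gave 0.31 ± 0.17 and did not. The lowest canonical values were those of Rpl28 (-0.06), Rps3a1 (-0.06), Rpl21 (-0.03), Rpl9 (0.005) and Rps10 (0.01), none of which passed. The 25 members that passed lay between 0.15 and 0.60, and all but Rpl35a at or below 0.28.

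Of the paralogues Rpl39l was lower in KO fetal liver, the 1 member tested that was. It had -0.45 and -0.48 in KO fetal against 0.13 and 0.22 in WT fetal liver, with no overlap, a difference of -0.64 ± 0.18 (adjusted p = 0.0443, limma) that passed in 11 of 20 settings. The log2 ratio of Rpl39l to Rpl39 differed by -0.82 ± 0.10 between KO and WT fetal liver (adjusted p = 0.00282, limma), and the adjusted p reached 0.174 under the alternatives.

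The genotype difference was lower in adult than in fetal liver for most members, which is the same as a deeper fall from fetal to adult in KO than in WT liver. With the 75th percentile the interaction passed the test and was negative in 60 of the 76 members (78.9%), against 29.3% of all genes tested, and it was positive and past the test in 0, against 21.1% (limma; 64 members had an unadjusted p under 0.05). The canonical median was -0.45 and the median over all genes was -0.08. No member's interaction reached 2-fold, against 9.74% of all genes. The lowest values were those of Rps28 (-0.78 ± 0.06), Rps21 (-0.76 ± 0.08), Rps20 (-0.64 ± 0.08), Rpl36 (-0.64 ± 0.07) and Rplp2 (-0.63 ± 0.06). Among canonical members Rpl4 (0.62 ± 0.24) and Rpl21 (0.16 ± 0.06) were highest and did not pass, while Rpl7l1 (0.41 ± 0.11, adjusted p = 0.0152, limma) was the 1 other member that was positive and passed. This result too rests on the scaling. With quantile normalization 13 members were negative and 15 positive, and the canonical median stood 0.06 below that of all genes in place of 0.37. The shares of all genes with that setting are not given here, so these 2 counts are not read against them. With the scaling to the array median 0 members passed, while the canonical median still stood 0.37 below that of all genes.

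Genes outside the name rule that also make ribosomes were set beside the members. Fau encodes a ribosomal protein fused to a ubiquitin-like protein, and Rack1 sits on the head of the small subunit. With the 75th percentile Fau differed between adult and fetal liver by -0.53 in KO and 0.31 in WT liver. Rack1 differed by -0.90 in KO and -0.61 in WT liver. In KO against WT adult liver Fau differed by -0.69 and Rack1 by -0.16, both past the test. Scalings by a factor per array shift all genes alike. Between WT stages the all-gene median was -0.03 with the 75th percentile, -0.725 with the array median and -0.45 with detected probes. These shifts exceed 0.31, so the WT sign of Fau turns. In KO against WT adult liver that median moved from -0.10 to 0.10 with the array median, which turns the sign of Rack1.

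Of 58 ribosome biogenesis genes, 51 were lower and 4 higher in KO adult than in KO fetal liver, with a median of -1.36, and 52 were lower and 5 higher in WT adult than in WT fetal liver, with a median of -1.20. Of all genes 44.2% were lower and 42.2% higher in KO, and 43.7% and 43.2% in WT liver. Npm1 and Ncl, abundant nucleolar proteins, differed by -2.15 and -1.75 in KO and by -2.49 and -1.84 in WT liver, and the snoRNP proteins Nop56 and Nop58 by -3.05 and -3.11 in KO and by -2.75 and -2.45 in WT liver. Ubtf, a factor of RNA polymerase I, was higher by 1.78 in KO and 2.62 in WT liver. Of 20 tested translation factor genes with TOP mRNAs, 16 were lower and 2 higher in KO adult, and 14 lower and 3 higher in WT adult liver, with medians of -0.90 and -0.63. Pabpc1, the poly(A)-binding protein, differed by -1.58 in KO and -1.66 in WT liver, whereas Eef1a1, the main elongation factor, was higher by 0.43 in KO and 1.01 in WT liver.

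The mitochondrial ribosome had no direction between stages that held across the scalings. Of its 77 tested genes 28 were lower and 35 higher in KO adult than in KO fetal liver, with a median of 0.05 (-0.49 to 0.05 over the 6 settings), and 26 were lower and 47 higher in WT adult than in WT fetal liver, with a median of 0.26 (-0.44 to 0.26). In KO against WT adult liver 55 of the 77 were lower and 10 higher, against 32.2% and 22.3% of all genes, with a median of -0.27. Their median stood 0.12 to 0.16 below that of all genes under the 6 scalings and sources, where the cytosolic members ran from 0.16 below to 0.01 above. Of 23 genes that control TOP mRNAs, 10 were lower and 10 higher in KO adult than in KO fetal liver, and 8 lower and 12 higher in WT adult than in WT fetal liver. Larp1, which binds TOP mRNAs, differed by -0.46 in KO and -0.02 in WT liver and Eif4ebp2, an inhibitor of translation initiation under mTOR, by 1.02 and 1.40. Members with and without a pyrimidine run at their annotated start had median adult minus fetal differences of -0.93 and -0.91 in KO liver and -0.64 and -0.54 in WT liver, for 32 and 24 genes.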

How the data were processed

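RNA of KO and WT adult and fetal livers was hybridised to 1-colour Agilent arrays, 2 per group. The deposited files hold intensity values that Agilent Feature Extraction 10.7.3.1 had background-subtracted and detrended, per the file headers. The 8 arrays shared 1 slide and 1 scan, with the first array of each group in slide row 1 and the second in row 2. The number of arrays limits the precision.

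From there, log2 of the processed signal minus each array's 75th percentile was taken. A gene was tested by its brightest probe if both arrays of some group had it well above background. limma 3.58.1 in R 4.3.3 (lmFit, eBayes with intensity trend, 8 arrays in 1 fit) gave p-values adjusted by Benjamini-Hochberg over 14582 genes. "Rose" and "fell" mean an adjusted p under 0.05. Of all gene values on the arrays 3 were missing and left out, none of a member. The fit was tested on simulated data.

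The alternatives were scaling to the array median, to the 75th percentile over detected probes, quantile normalization, normexp (offset 50, on median signals, with quantile normalization), the deposited value table, other filters and probes, the slide row as a block, and each array left out. The value table holds linear values with medians of 18.1 and r of 0.995 to 0.999 with the scanner values, and how it was normalised is not stated. The duplicates share only a number, so the block marks the slide row.

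The members, lists and tests were chosen with earlier results of these data known. Named genes were, per comparison, the members past the threshold and 2-fold, the 5 highest, the 5 lowest and a fixed list. In the list of ribosomal genes outside the name rule 1 gene is not reported here. The paralogue ratios were added after the data were seen.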

Additional observations from a re-analysis of the deposited data

Results flagged for a closer look

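The difference between the genotype effect in adult and in fetal liver was tested as an interaction, and with the 75th percentile it passed for 60 of the 76 canonical members, all negative, against 29.3% of all genes negative and 21.1% positive. There were 13 negative and 15 positive with quantile normalization and in the value table, and 17 and 15 with normexp. Among those with the lowest values, the effect differed by -0.78 for Rps28, -0.76 for Rps21, -0.64 for Rps20, -0.64 for Rpl36 and -0.63 for Rplp2 on the log2 scale (limma, adjusted p of 6.0e-05 to 0.000504). Each group behind it is 1 RNA sample. With the scaling to the array median 0 members passed, though the canonical median still stood 0.37 below that of all genes.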

How the results depend on the processing

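Among 20 alternatives the fall from fetal to adult liver kept its direction for the canonical median in both genotypes, and the genotype differences did not keep their counts. The cause was not tested. The canonical median minus the all-gene median (log2) was, for KO against WT in adult liver, 0.0123 with quantile normalization, -0.0155 with normexp, 0.0124 in the value table, -0.0793 without the filter on dim probes and -0.113 with the second-brightest probe. For KO against WT in fetal liver it was 0.0372 with quantile normalization, 0.0274 with normexp, 0.0368 in the value table and 0.112 with a gene's probes averaged. For the interaction it was -0.0587, -0.0441 and -0.0582 under those 3 settings, -0.306 without the filter, -0.277 with the mean of probes and -0.268 with the second-brightest probe. Between stages in KO liver it was -1.17 with normexp, -1.47 without the filter, -1.12 with probes above background on all 8 arrays, -0.976 with the mean of probes and -0.988 with the second-brightest probe. Between stages in WT liver it was -0.902 with quantile normalization, -1.13 with normexp, -0.900 in the value table, -1.22 without the filter, -0.867 with all 8 arrays, -0.670 with the mean of probes, -0.658 with the second-brightest probe and -0.554 with every symbol kept.

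Large minus small subunit medians were 0.0832 in the adult genotype comparison with the mean of probes and 0.132 in the interaction with the second-brightest probe. Between stages they were 0.113 with normexp, -0.0063 with the mean of probes and 0.0343 with the second-brightest probe in KO liver, and 0.0579 in the value table, 0.0206 with the mean of probes and -0.126 with the second-brightest probe in WT liver. Under the array median, quantile, detected-probe, normexp and value table settings, in that order, the members past 2-fold between stages numbered 70, 54, 60, 63 and 54 in KO and 57, 50, 39, 61 and 50 in WT liver (24 in WT with the second-brightest probe), and 1 each in KO against WT adult liver. Lower members in KO adult liver numbered 0, 15, 17 and 16 under the array median, quantile, normexp and value table settings, and negative interactions 0, 13, 17 and 13. In fetal liver 0, 3, 6 and 4 were higher under the same settings and 14 without the intensity trend, while 4, 5 and 4 were lower under the last 3 of them and 1 with every symbol kept.

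With 1 array left out, the canonical minus all-gene median ran from -0.186 to -0.147 (adult genotype), from 0.105 to 0.177 (fetal genotype), from -0.382 to -0.331 (interaction) and from -0.622 to -0.549 (WT stages). Large minus small ran from 0.0235 to 0.0860 in the interaction and from 0.0432 to 0.0879 for the WT stages. The count past 2-fold in adult KO against WT ran from 0 to 1, and the fetal count of higher members from 1 to 29. With the replicate block (slide row) 20 members were higher in KO fetal liver against 25 without it, 53 were lower in KO adult liver in both, and no count moved by over 1.5 times.

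Signs reversed for some single members. In KO against WT fetal liver Rpl9 was -0.166 with quantile normalization, -0.188 with normexp and -0.166 in the value table, and Rps14 was 0 with normexp. Between WT stages, under the array median, quantile, detected-probe, normexp and value table settings, Rpl10 was -0.506, -0.725, -0.230, -0.881 and -0.735, Rpl36 was -0.544, -0.270, -0.267, -0.514 and -0.281 (-0.0308 with the mean of probes), and Rpl37 was -0.554, -0.527, -0.278, -0.753 and -0.532. In the same order Rps24 was -0.585, -0.327, -0.309, -0.549 and -0.335 (-1.15 with the mean of probes and -3.17 with the second-brightest probe), and Rps14 was -0.929, -0.301, -1.05 and -0.924 under the last 4 settings. Rpl10 between KO stages was 0.174 with the mean of probes and 0.306 with the second-brightest probe. Of the ratios, Rpl7l1 to Rpl7 between WT stages was 0.241 with quantile normalization, 0.417 with normexp and 0.239 in the value table, Rpl39l to Rpl39 between KO stages was fitted at 0.507 with normexp and at -2.38 with the 75th percentile, for a probe not well above background in adult liver, where only a bound can be given, and the interaction of Rps4l to Rps4x was -0.00371 with normexp.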
